A study of Mus musculus with 6 samples.

Results

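The JNK and p38 mitogen-activated protein kinase genes were followed in epididymal white adipose tissue, the fat pad beside the epididymis, of mice fasted for 24 h. The set held 10 of the 45777 genes of the deposited table, matched by symbol: the JNK genes Mapk8, Mapk9 and Mapk10, the p38 genes Mapk11, Mapk12 and Mapk14, the upstream kinase genes Map2k4, Map2k7 and Map3k5, and the scaffold gene Mapk8ip1. The family was chosen by the read counts of Mapk10, which had counts under 1 of the 2 labels, so Mapk10 is described here with no test. mRNA was sequenced from 3 libraries labelled KO, of the genotype Adipoq-Cre; Pak4 flox/flox, and 3 labelled WT, of the genotype Pak4 flox/flox. Both groups carried floxed alleles of Pak4, a kinase that acts downstream of CDC42-type GTPases, on a C57BL/6 background, and the KO label adds a Cre recombinase expressed from the Adipoq promoter in adipocytes, so that other cells of the pad keep Pak4. The labels give no age. They call the material adipocytes, but the protocol is one for pieces of whole fat pad. By the genotypes in the labels, the comparison was set up to address what loss of Pak4 from adipocytes changes in fasted fat. The Pak4 counts, given below, were higher under the KO label.

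In this pathway a stress signal activates a MAP3K such as ASK1, encoded by Map3k5. The MAP3K phosphorylates a MAP2K, and MKK4 and MKK7, encoded by Map2k4 and Map2k7, then phosphorylate JNK on a threonine and a tyrosine of its activation loop. MKK3 and MKK6 do the same for p38. Scaffolds such as JIP1, encoded by Mapk8ip1, hold the JNK tier together. In adipose tissue JNK signalling is best known for dampening the insulin response in obesity, and p38 for acting below beta-adrenergic receptors on thermogenic genes. JNK1 and JNK2, from Mapk8 and Mapk9, are made in most tissues, whereas JNK3, from Mapk10, is known mainly from brain, heart and testis.

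The site that is phosphorylated separates the 2 families in their coding sequence. The 63 bases around it are shown for the 6 kinases as they lie in GENCODE M21 transcripts, with the 3 codons of the phosphorylated motif in capitals, which read threonine-proline-tyrosine in JNK and threonine-glycine-tyrosine in p38.
Mapk8: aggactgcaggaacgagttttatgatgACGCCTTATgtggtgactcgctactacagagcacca
Mapk9: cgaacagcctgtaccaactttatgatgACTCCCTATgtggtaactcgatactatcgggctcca
Mapk10: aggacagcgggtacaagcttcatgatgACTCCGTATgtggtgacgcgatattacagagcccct
Mapk11: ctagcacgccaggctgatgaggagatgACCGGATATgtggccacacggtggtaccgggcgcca
Mapk12: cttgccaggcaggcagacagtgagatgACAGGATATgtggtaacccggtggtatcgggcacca
Mapk14: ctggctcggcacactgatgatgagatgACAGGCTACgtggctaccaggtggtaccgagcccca
In these windows Mapk10 differed from Mapk8 at 13 bases, from Mapk9 at 16 and from Mapk14 at 32. Over the longest open reading frames, Mapk10 was 74.8% identical to Mapk8 and 75.2% to Mapk9 in aligned bases, and the p38 genes were 65.3% to 70.0% identical to each other. No stretch of 50 bases in the 12 annotated Mapk10 transcripts occurred in a transcript of any other gene (0 of 11258 distinct stretches).

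Pak4, the targeted gene, was higher under the KO label. Its counts were 815, 744 and 675 in the libraries labelled KO, against 339, 337 and 358 in those labelled WT, so directions are given between labels and not between genotypes. The counts cover the whole gene, and the labels do not say which exons are floxed. Whether the total reflects those exons, and whether the deposited labels are exchanged, was not tested. Total counts ran from 65230001 to 70830615 in libraries labelled KO and from 62854465 to 72005658 in those labelled WT. Levels between labels are in TMM-scaled CPM (counts per 1000000 counts), and fold changes are log2 values of KO over WT labels ± SE from the quasi-likelihood test of edgeR. Its p-values were adjusted by Benjamini-Hochberg over all 17820 genes tested, with a threshold of 0.05. Pak4 stood at 0.96 ± 0.14, with no overlap between labels (adjusted p 0.0898 in edgeR and 8.49e-06 with DESeq2). Adipoq, the adiponectin gene that marks adipocytes, had 6948 to 10166 TPM in libraries labelled KO and 5952 to 7166 TPM in those labelled WT. Whether each numbered library came from its own mouse is not stated in the labels, and p-values therefore cover the spread among these libraries, which may be technical.

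Mapk10 had 27, 23 and 42 counts in the libraries labelled KO and 0 counts in each library labelled WT. The 3 libraries labelled KO were thus all above the 3 labelled WT, at a low level. Summed over libraries, Mapk10 had 92 counts, or 0.453 CPM of the unscaled total, under the KO label (exact Poisson 95% interval 0.365 to 0.556). For the sum of 0 under the WT label a floor of 3 counts, or 0.0152 CPM, was set. That floor lies below the upper end of the same kind of interval on 0 counts. On TMM-scaled totals, the lower bound of the interval under the KO label was 22.2 times that floor. This ratio describes counts that chose the family, and is neither a test nor a least fold change. In single libraries labelled WT, the exact Poisson 95% interval on 0 counts reached up to 0.0512 to 0.0587 CPM. The lowest interval bound of a library labelled KO was 0.224 CPM. Such intervals and floors cover counting error only, since PCR copies of a molecule are counted as separate reads.

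Per length, Mapk10 was a minor transcript even where it was counted. Its deposited TPM was 0.0877, 0.0783 and 0.159 in the libraries labelled KO and 0 in those labelled WT. Of the summed TPM of the 3 JNK genes it made up 0.269%, 0.204% and 0.456% in the libraries labelled KO. Its mean over the 6 libraries stood above that of 11.3% of the 17126 protein-coding genes with a TPM above 0, while Mapk8 stood above 47.6% and Mapk9 above 77.1%.

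Mapk10 was chosen for its counts under 1 label, so the shares that follow describe the table and are no support for the pattern. They are over genes of every level. Of 26564 genes with a count in any library, Mapk10 alone had at least 10 counts in every library labelled KO and 0 in every library labelled WT (0.00376% of genes), and 2 genes had the reverse pattern (0.00753%). With any count in every library in place of 10, the numbers were 76 genes (0.286%) and 56 genes (0.211%). The genes nearest to Mapk10, named after their values were seen, were the keratin gene Krt76, with 10, 9 and 13 counts under the KO label, the immunoglobulin segment Igkv4-86, with 12, 9 and 9, and Ido1, which encodes a tryptophan-degrading enzyme, with 9, 9 and 11.

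Mapk10 lies on chromosome 5 at chr5:102908547-103212604 on the minus strand of mm10 (GRCm38.p6), and none of its 3 nearest measured protein-coding neighbours on either side had counts in every library of 1 label and 0 in every library of the other. Arhgap24, which encodes a GTPase-activating protein, ends 3511 bases from it and had 18.6 ± 1.76 and 21.6 ± 3.05 CPM in the libraries labelled KO and WT (SD, n = 3 each). Ptpn13, a protein tyrosine phosphatase gene 212587 bases away on the other side, had 51.2 ± 11.2 and 40.6 ± 8.11 CPM. Their log2 fold changes were -0.22 ± 0.13 and 0.34 ± 0.19, with adjusted p 0.376 and 0.366 in edgeR. Of the next neighbours, Wdfy3 (-0.15 ± 0.09), Cds1 (-0.63 ± 0.14, with no overlap between labels) and Slc10a6 (0.61 ± 0.27) did not pass either, and 1700016H13Rik had 0, 0 and 2 counts under the KO label and 5, 5 and 0 under the WT label. GENCODE lists a processed pseudogene, Gm42522, and Gm43789 inside Mapk10 on the same strand, for which no counts were used here.

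The upstream one of the 2 promoter windows of Mapk10 is shown because this gene had counts under 1 label while Mapk9 had them under both. It spans chr5:103211285-103211584 (minus strand, RefSeq, GRCm38.p6), 250 bases before to 50 after an annotated start, with the letters TGACGTCA in capitals. The whole window lies inside the span of Mapk10 given above, so the gene also extends upstream of it. The promoter of Mapk9, at chr11:49846501-49846800 on the plus strand, stands beside it and lacks those letters.
Mapk10: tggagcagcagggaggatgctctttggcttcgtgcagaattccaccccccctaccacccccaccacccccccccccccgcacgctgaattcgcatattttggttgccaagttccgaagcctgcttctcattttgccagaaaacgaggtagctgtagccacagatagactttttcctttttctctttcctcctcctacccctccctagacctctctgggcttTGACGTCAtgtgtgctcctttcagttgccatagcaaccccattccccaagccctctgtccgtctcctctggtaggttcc
Mapk9: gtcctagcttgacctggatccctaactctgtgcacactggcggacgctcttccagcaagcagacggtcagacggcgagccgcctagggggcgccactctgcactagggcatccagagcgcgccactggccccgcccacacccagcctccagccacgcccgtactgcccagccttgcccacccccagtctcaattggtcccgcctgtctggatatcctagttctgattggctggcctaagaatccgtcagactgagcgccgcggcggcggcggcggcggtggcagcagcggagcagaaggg
TGACGTCA, which reads the same on both strands and is known as the cAMP response element, begins 29 bases before the annotated start of that window. It was looked for after the sequence was read. It occurs in 1 of 14 promoter windows of the 9 members with an entry, and in 1.79% of all 32851 windows. TGANTCA, a loose form of the AP-1 motif with any base at N, was also searched, as a pattern that is the same on both strands. It occurs in 1 member window, the second of Map2k7, and in 7.81% of all windows. In the Map2k7 window it reads TGATTCA. The stricter form of the motif, with C or G at N, was not counted apart. The Mapk10 window holds 8 CpG dinucleotides, against 23 in that of Mapk9, 45 in the first of Mapk8 and a median of 7 over all windows.

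By the likeness of log2 CPM over the 6 libraries, the genes closest to Mapk10 were Alox5, Bhlhe40, Fbxw17, Il1rl2 and Brd2, with Pearson r from 0.989 to 0.997 as a description. The 6 points fall into 2 clusters by label. Alox5, the 5-lipoxygenase gene, had 773, 806 and 901 counts in the libraries labelled KO and 556, 618 and 567 in those labelled WT. Bhlhe40, the gene of a transcriptional repressor linked to the circadian clock, had 1149, 1219 and 1401 against 601, 680 and 644 counts.

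Markers of other cell types were read beside Mapk10. The summed level of 12 neuron and axon markers was 17.4 to 23.0 CPM in the libraries labelled KO and 16.2 to 21.2 CPM in those labelled WT, with overlap. Most of that sum was Stmn2, at 9.33 to 16.5 and 6.94 to 11.4 CPM under the KO and WT labels, and Uchl1, at 5.22 to 8.52 and 6.54 to 8.10 CPM. Of the 7 neuron and axon markers tested, 6 had log2 fold changes below 0 and 0 passed in edgeR. The neurofilament gene Nefm had 7, 10 and 0 counts in the libraries labelled KO and 20, 29 and 26 in those labelled WT, with no overlap. Th was at 0 in all 6 libraries, and Rbfox3, the NeuN gene, averaged 0.05 CPM under the KO label and 0.25 CPM under the WT label. Of 10 epididymis and sperm markers, 4 were at 0 throughout, and the sum was at most 0.818 CPM under the KO label and 1.01 CPM under the WT label. Schwann cell markers, 8 in all, summed to 193 to 200 CPM under the KO label and 190 to 203 CPM under the WT label. The 10 macrophage markers summed to 2134 to 2863 CPM and 1983 to 2442 CPM under the KO and WT labels, with overlap. All 10 of them had log2 fold changes above 0, with a median of 0.26. Trem2, Mrc1 and Cd68 lay above without overlap between labels, as did 13.7% of all genes tested. Of the 10, edgeR called 0, with 3 higher at an unadjusted p under 0.05, against 1721 of all 17820 genes. DESeq2 called 2 higher, Trem2 (1.00, adjusted p 0.00298) and Mrc1 (0.50, adjusted p 0.0250), where it called 2.61% of all genes higher. Their part in the counts of Mapk10 was not tested. In whole tissue, fewer cells of a type and less RNA per cell cannot be told apart.

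**Figure D1:**
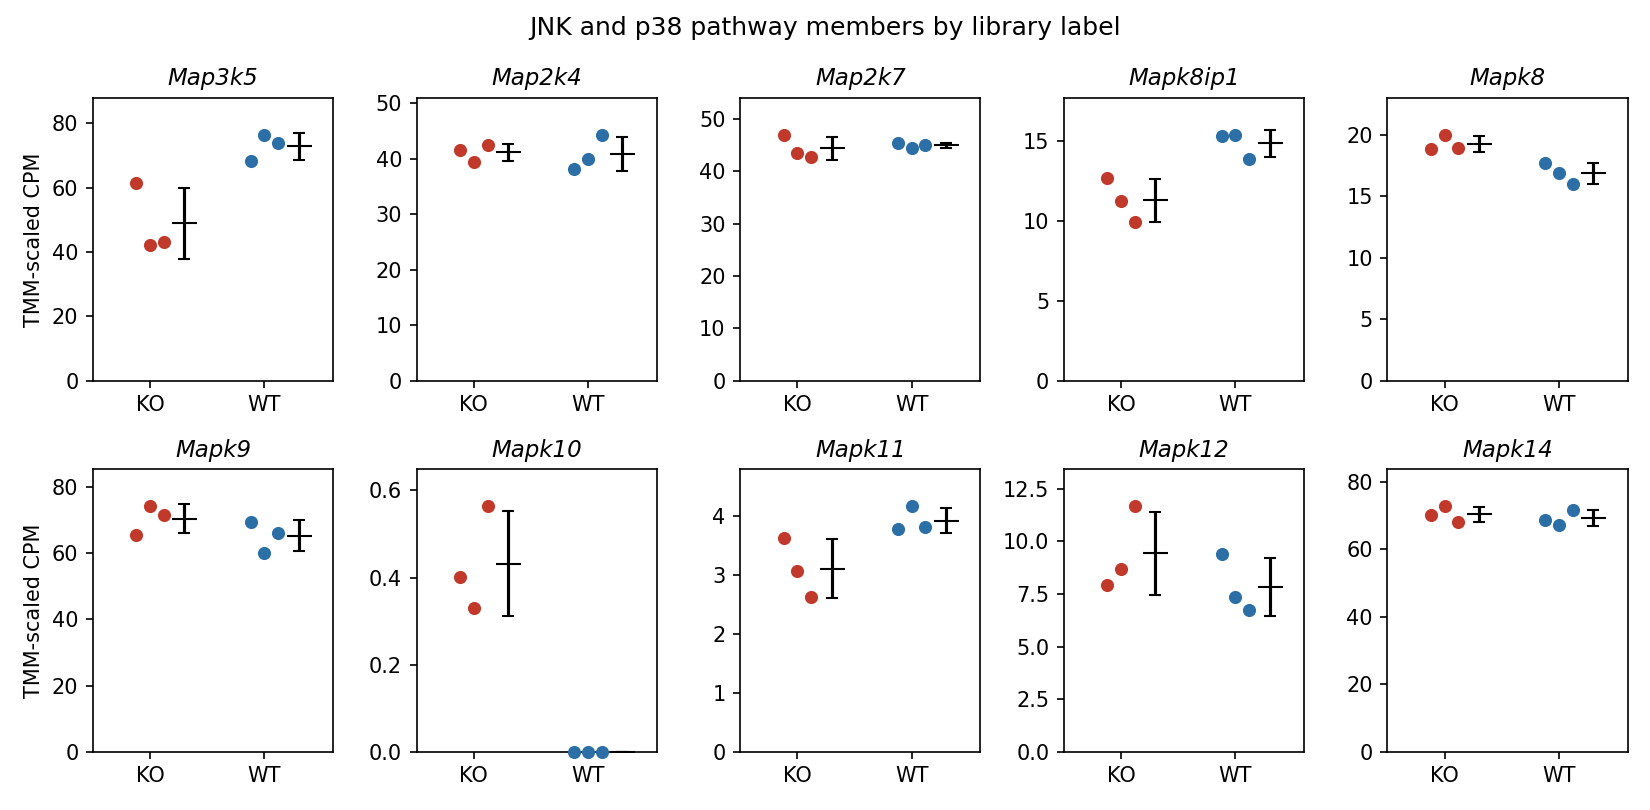
TMM-scaled CPM (vertical axes, from 0) of the 10 genes in the 3 libraries labelled KO (red, left) and the 3 labelled WT (blue, right); black marks show mean and SD. Mapk10 lies at 0 in all 3 libraries labelled WT, and Map3k5, Mapk8ip1 and Mapk11 lie lower in all 3 libraries labelled KO than in the 3 labelled WT.

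The main JNK genes, Mapk8 and Mapk9, did not pass the threshold between labels. Mapk8, which encodes JNK1, had 18.9, 20.0 and 18.9 CPM in the libraries labelled KO and 17.7, 16.9 and 16.0 CPM in those labelled WT. All 3 libraries labelled KO were above the 3 labelled WT, at a log2 fold change of 0.19 ± 0.09 (adjusted p 0.275 in edgeR). Mapk9, which encodes JNK2, had 65.4, 74.1 and 71.4 CPM in the libraries labelled KO and 69.3, 60.1 and 66.1 CPM in those labelled WT. The groups overlapped, and the log2 fold change was 0.11 ± 0.09 (adjusted p 0.527 in edgeR). GENCODE lists 2 processed pseudogenes inside Mapk8, Gm49037 and Gm46448, for which no counts were used here. The summed TPM of the 3 JNK genes was 35.3 ± 2.91 in the libraries labelled KO and 31.0 ± 2.78 in those labelled WT (SD, n = 3 each).

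Among the p38 genes, none passed the threshold and the 3 differed in sign. Mapk14, which encodes p38 alpha, had 70.0, 72.8 and 68.2 CPM in the libraries labelled KO and 68.8, 67.3 and 71.7 CPM in those labelled WT, a log2 fold change of 0.02 ± 0.08 (adjusted p 0.897 in edgeR). Mapk11, for p38 beta, had 3.63, 3.06 and 2.63 CPM under the KO label and 3.77, 4.16 and 3.81 CPM under the WT label. Every library labelled KO was below every library labelled WT, at -0.34 ± 0.17 (adjusted p 0.313 in edgeR). Mapk12, for p38 gamma, which is best known from skeletal muscle, had 7.92, 8.71 and 11.7 CPM under the KO label and 9.40, 7.37 and 6.77 CPM under the WT label. The groups overlapped, at 0.27 ± 0.19 (adjusted p 0.453 in edgeR), and KO 3 was the highest library.

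Mapk12 and Mapk11 sit 904 bases apart on chromosome 15 (chr15:89130584-89141577 and chr15:89142482-89149606, both on the minus strand), with fold changes on opposite sides of 0. The summed level of 9 skeletal muscle markers was 173, 30.8 and 34.7 CPM in KO 1, KO 2 and KO 3 and 104, 606 and 280 CPM in WT 1, WT 2 and WT 3. Most of that sum was the actin gene Acta1, at 151, 7.81 and 13.9 CPM under the KO label and 79.6, 582 and 257 CPM under the WT label. Actn3, the fast-fibre actinin gene, had 243, 353 and 482 counts under the KO label and 141, 107 and 169 counts under the WT label, with no overlap in CPM (1.19 ± 0.28, adjusted p 0.144 in edgeR and 0.00381 with DESeq2). KO 3 was the highest library for Actn3, Tnni2 and Tnnt3 as for Mapk12. It was the lowest for Myl1, at 13.0 CPM, where all libraries labelled KO were below those labelled WT. Acta1 and Pvalb were highest in WT 2, and Ckm, Myh4 and Myh1 had 0 counts in KO 3. The part of muscle RNA in the values of Mapk12 was not tested.

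The upstream kinase gene Map3k5 stood farthest from 0 of the 9 genes tested. It had 61.5, 42.1 and 43.1 CPM in the libraries labelled KO and 68.2, 76.4 and 73.9 CPM in those labelled WT. All libraries labelled KO were below those labelled WT, and KO 1 lay nearest to them. The log2 fold change was -0.57 ± 0.15, and edgeR's adjusted p of 0.155 missed the threshold. With DESeq2 Map3k5 passed (-0.59, adjusted p 0.0225), as it did in edgeR without KO 1 (-0.78, adjusted p 0.0240), and its adjusted p ran from 0.0225 to 0.425 over all settings.

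The MAP2K genes did not pass the threshold between labels. Map2k4 had 41.5, 39.5 and 42.5 CPM in the libraries labelled KO and 38.2, 40.0 and 44.3 CPM in those labelled WT (log2 fold change 0.01 ± 0.09, adjusted p 0.958 in edgeR). Map2k7 had 46.9, 43.5 and 42.7 CPM under the KO label and 45.4, 44.5 and 44.9 CPM under the WT label (-0.02 ± 0.08, adjusted p 0.915 in edgeR, and 0.10 when scaled by library size alone). Both overlapped between labels. The scaffold gene Mapk8ip1 had 12.7, 11.3 and 9.96 CPM in the libraries labelled KO and 15.3, 15.4 and 13.9 CPM in those labelled WT. All libraries labelled KO were below those labelled WT, at -0.40 ± 0.12, with an adjusted p of 0.169 in edgeR and 0.0601 with DESeq2. GENCODE places 1700029I15Rik on the opposite strand over 2033 bases of Mapk8ip1, with 18 to 45 counts in the libraries labelled KO and 17 to 32 in those labelled WT, and the strand setting of the counting is unknown. GENCODE also lists Gm49320 along 9033 bases of Map2k7 and AC170998.1 along 618 bases of Mapk14, both on the same strand as the kinase gene.

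In all, 0 of the 9 genes passed in edgeR, where 0.0168% of all genes tested did (3 of 17820, with 0 higher and 3 lower, or 1 higher and 3 lower when scaled by library size alone). At an unadjusted p under 0.05 there were 2 of 9, Map3k5 and Mapk8ip1, against 19.4% of all genes. DESeq2 called 1 of 9, Map3k5, against 6.46% of all genes, and edgeR without KO 1 called Map3k5 too, as lower, against 5.57% of all genes, 2.08% higher and 3.49% lower. The median log2 fold change of the 9 genes was 0.01, beside 0.02 for all genes tested. Groups did not overlap for Mapk8 above and for Map3k5, Mapk8ip1 and Mapk11 below, 4 of 9, against 26.2% of all genes in either direction, 13.7% above and 12.5% below.

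**Figure D2:**
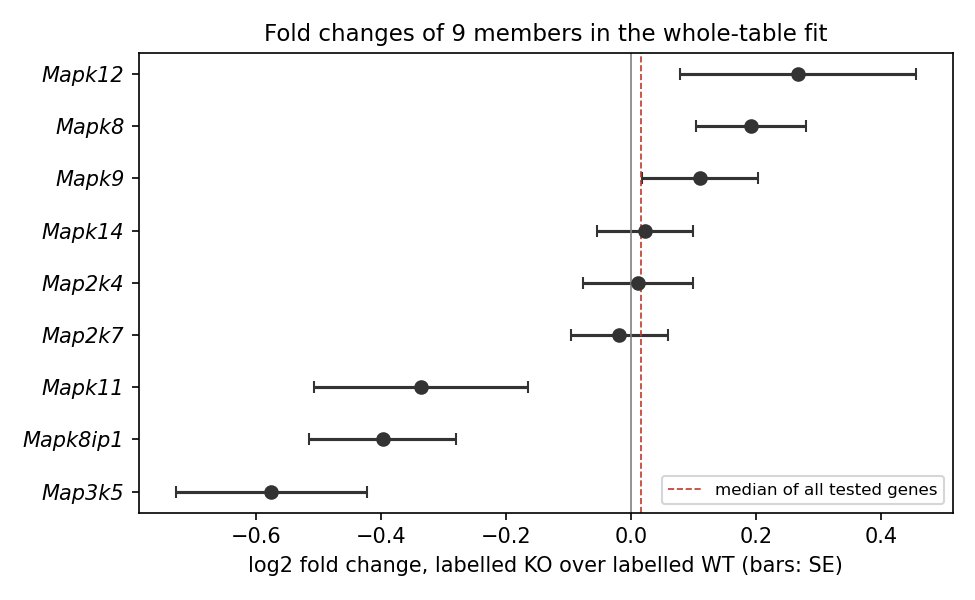
Log2 fold change of the libraries labelled KO over those labelled WT (horizontal axis) with SE for 9 genes, and the median of all tested genes as a dashed line. Map3k5, Mapk8ip1 and Mapk11 lie between -0.57 and -0.34, and Map2k4, Map2k7 and Mapk14 within 0.02 of 0.

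Endothelial markers stood apart by label in the same direction as Map3k5, Mapk8ip1 and Mapk11. The summed level of 10 endothelial markers was 243 to 262 CPM in the libraries labelled KO and 287 to 367 CPM in those labelled WT, with no overlap, and 8 of 10 had log2 fold changes below 0. Of the 10, edgeR called 0, with 6 lower at an unadjusted p under 0.05, against 1730 of all 17820 genes. DESeq2 called 5 lower, where it called 3.86% of all genes. The part of endothelial RNA in the values of Map3k5, Mapk8ip1 and Mapk11 was not tested. Adipocyte markers summed to 49771 to 55124 CPM and 49204 to 54913 CPM under the KO and WT labels, with overlap. Single markers in that sum went both ways, with 3 of 10 log2 fold changes above 0 and 7 below. EdgeR called 0 of them. DESeq2 called Pparg (0.60, adjusted p 0.00286) and Cfd (1.02, adjusted p 0.0132) higher and Pnpla2 (-0.49, adjusted p 7.42e-04) lower. It called 2.61% of all genes higher and 3.86% lower.

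Within each library, 1 paralogue dominated each family. Per length, Mapk9 exceeded Mapk8 in 6 of 6 libraries, by 2.15 ± 0.09 on the log2(TPM + 0.1) scale (SD, n = 6), or 4.44-fold. Mapk9 supplied 81.1 ± 0.61% of the JNK TPM in the libraries labelled KO and 82.2 ± 1.03% in those labelled WT. Mapk14 exceeded Mapk11 by 3.75 ± 0.25 and Mapk12 by 2.31 ± 0.31 in 6 of 6 libraries. It supplied 78.0 ± 3.03% and 78.9 ± 2.47% of the summed TPM of these p38 genes under the KO and WT labels. Mapk13, another p38 gene, was not in that sum. Mapk11 was below Mapk12 in 6 of 6 libraries, by -1.44 ± 0.50, and Map2k4 below Map2k7, by -0.26 ± 0.09. Each of these 5 pairs within a library had p = 0.03125 in a two-sided exact sign-flip permutation test over 6 libraries, the smallest it can give, and 0.03125 after Benjamini-Hochberg adjustment over the 5 pairs. That test covers only whether a difference repeats over the libraries. An error of gene length or annotation shared by all 6 would not show in it. With no division by length, Map2k4 over Map2k7 was -0.12.

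The order of the median TPM over 6 libraries was Mapk14 (36.7), Mapk9 (27.0), Map2k7 (24.6), Map3k5 (22.4), Map2k4 (20.8), Mapk8ip1 (8.32), Mapk12 (7.27), Mapk8 (6.06), Mapk11 (2.80) and Mapk10 (0.0391). The ranges of Mapk9, Map2k7, Map3k5 and Map2k4 overlapped from one neighbour to the next, as did those of Mapk8ip1, Mapk12 and Mapk8. The steps from Mapk14 to Mapk9, from Map2k4 to Mapk8ip1, from Mapk8 to Mapk11 and from Mapk11 to Mapk10 had no overlap. The spread within a label also differed: the coefficient of variation of TPM under the KO label was 1.13% for Map2k4 and 6.68% for Mapk8 but 21.1% for Map3k5 and 22.2% for Mapk12, and under the WT label it was 11.1%, 5.38%, 5.91% and 19.5% for the same genes.

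**Figure D3:**
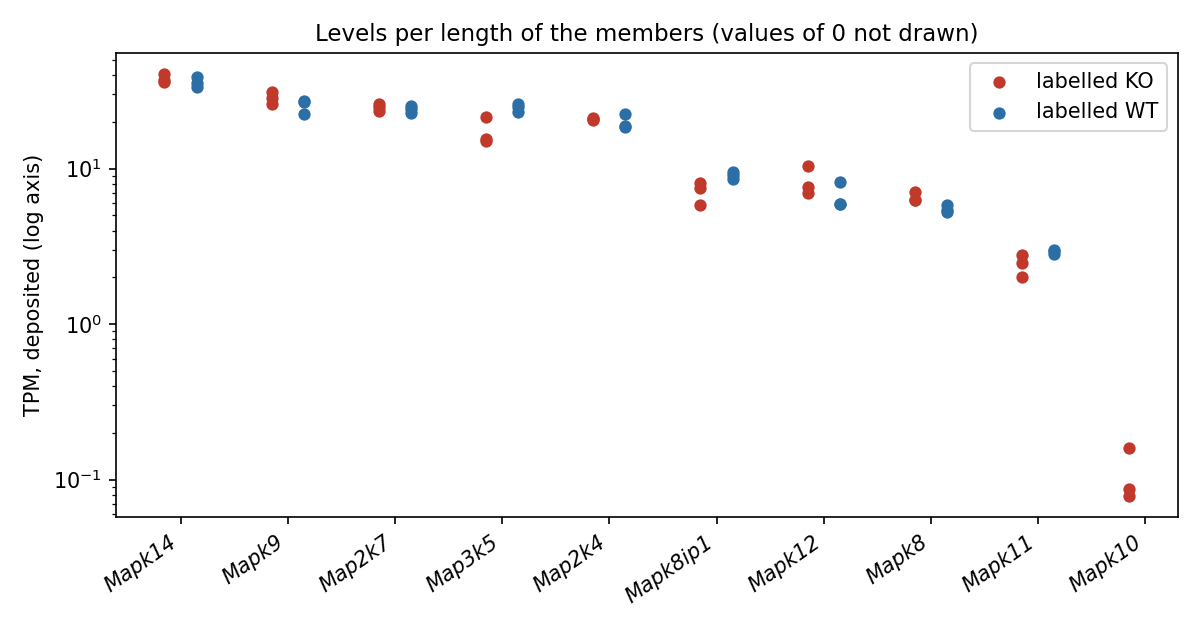
Deposited TPM (log axis) of the 10 genes, ordered by their median, with libraries labelled KO in red on the left and those labelled WT in blue on the right. Mapk14 lies highest, at 33.5 to 40.5 TPM, and Mapk10 lowest, at 0.0783 to 0.159 TPM in the libraries labelled KO and 0, not drawn, in those labelled WT.

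Of 53 other genes of the JNK and p38 pathway, 52 were tested and 0 passed in edgeR, with 3 higher and 3 lower at an unadjusted p under 0.05 and a median log2 fold change of 0.00. DESeq2 called 3 lower and 0 higher, where it called 3.86% and 2.61% of all genes. The 3 were Map3k6, Map3k20 and Rps6ka5. Map3k6 encodes ASK2, the partner of ASK1, and had 34.2 ± 2.48 CPM in the libraries labelled KO and 52.7 ± 2.68 CPM in those labelled WT (SD, n = 3 each; -0.62 ± 0.09, adjusted p 0.0877 in edgeR and 3.11e-06 with DESeq2). It also passed in edgeR without KO 1 (adjusted p 0.0303). Its groups did not overlap. Of the 52 pathway genes tested, 4 lay above and 5 below without overlap, against 13.7% and 12.5% of all genes tested. Map3k20, the gene of the ribosome stress kinase ZAK, had 43.8 ± 7.28 and 63.2 ± 10.4 CPM (-0.53 ± 0.16, adjusted p 0.171 in edgeR). Map3k12, a kinase of axon injury signalling, lay on the other side at 0.41 ± 0.15 (adjusted p 0.214 in edgeR), and the 14 MAP3K genes had a median of 0.02.

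Downstream of p38, Rps6ka5, which encodes the histone and CREB kinase MSK1, had 10.7 ± 0.63 CPM in the libraries labelled KO and 14.3 ± 0.80 CPM in those labelled WT (-0.43 ± 0.10, adjusted p 0.145 in edgeR and 0.0139 with DESeq2). Rps6ka4, for its relative MSK2, stood at -0.21 ± 0.11 and Mknk1, a kinase of the cap-binding factor eIF4E, at -0.13 ± 0.09, and 5 of 7 downstream kinase genes lay below 0. Among the MAP2K genes of p38, Map2k6 had a log2 fold change of 0.67 ± 0.32 and Map2k3 one of -0.27 ± 0.15, while the fourth p38 gene, Mapk13, at 0.58 ± 0.31 and 0.34 ± 0.08 CPM, stood at 0.76 ± 0.47.

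Adaptors, phosphatases and substrates were spread on both sides of 0. Tab1, an activator of TAK1, stood at 0.16 ± 0.10, Gadd45g, a stress-induced MAP3K activator, at -0.42 ± 0.27 and the scaffold gene Spag9 at -0.14 ± 0.09. The phosphatase genes Dusp22, Dusp16 and Dusp1 stood at -0.13 ± 0.09, 0.19 ± 0.18 and 0.18 ± 0.20. Of the transcription factor genes, Ddit3, which encodes CHOP, had 14.1 ± 1.51 and 10.6 ± 1.24 CPM under the KO and WT labels (0.42 ± 0.13, adjusted p 0.178 in edgeR) with no overlap. Mef2c stood at 0.36 ± 0.13 and Mef2a at 0.24 ± 0.11, and Jun, the substrate that named JNK, at -0.05 ± 0.18.

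Of 13 genes of the ERK arm, the third MAP kinase branch, 0 passed in edgeR. Mapk6, an atypical MAP kinase gene, had 106 ± 13.0 CPM in the libraries labelled KO and 77.0 ± 3.77 CPM in those labelled WT (0.47 ± 0.11, adjusted p 0.144 in edgeR and 0.0118 with DESeq2). It was the 1 gene of this arm that DESeq2 called, where it called 2.61% of all genes higher and 3.86% lower. Map2k2 stood at -0.29 ± 0.12 and Mapk3, for ERK1, at -0.20 ± 0.12.

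**Figure D4:**
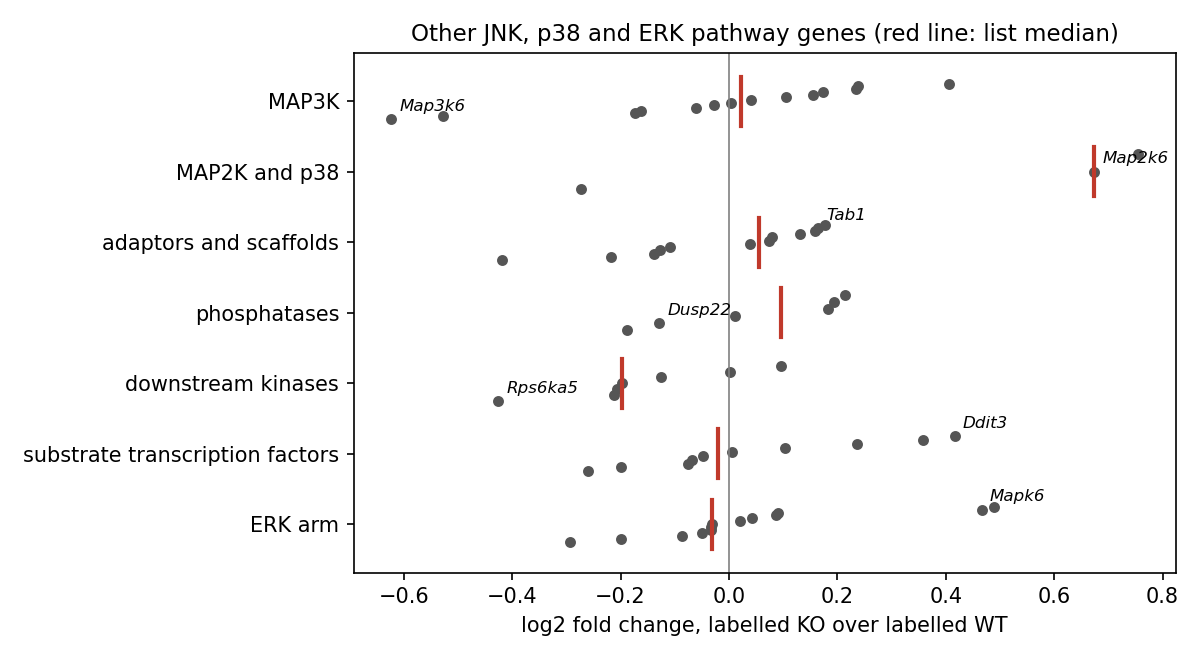
Log2 fold change of the libraries labelled KO over those labelled WT (horizontal axis) for the tested pathway genes by role, 1 point per gene, with the list median as a red line and the gene of smallest p named in each list. Map3k6 lies at -0.62, Rps6ka5 at -0.43 and Ddit3 at 0.42, and the medians of the lists with 6 or more genes lie between -0.20 and 0.10.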

How the data were processed

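Per the labels' protocols, epididymal fat went into RNAlater, Trizol served for RNA, and the library kit was stranded and selected mRNA. The submitters' processing notes name the build mm10 and the tools StringTie 2.1.3b, HISAT2 2.1.0 and Bowtie2 2.3.4.1, with no role or order. Strand and multiple matches in the counting are points not given in the sources used here.

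Per the file headers, the authors deposited whole-number read counts, FPKM and TPM for 45777 genes. Counts entered the tests between labels. The deposited TPM values, scaled by the authors to transcript length and library, served for levels between genes, and the deposited FPKM values as an alternative. Libraries were grouped by title. The lowest chi-square of a pair of libraries was 49.9 per degree of freedom, so all 6 counted separately. In edgeR 4.0.16 under R 4.3.3, filterByExpr set the genes tested, with a minimum count of 10 and a minimum total of 15. TMM factors gave the scaling, and robust glmQLFit with a two-sided glmQLFTest the comparison of labels. DESeq2 1.42.0 was an alternative, and both were tested on simulated data. The biological coefficient of variation was 0.200. Log2 CPM for likeness used a prior count of 2. Of the gene identifiers, 45679 matched RefSeq GRCm38.p6. Coding identity is from a global alignment in Biopython 1.88.

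The members, lists and tests were chosen with earlier results of these data known. The genes named were all members, up to 3 of each pathway list with the smallest p, up to 5 genes most like Mapk10, its 3 nearest measured protein-coding neighbours on each side, Pak4 and Adipoq. Jun, Krt76, Ido1, Igkv4-86 and the cell type markers named were added after their values were seen. Other settings were RLE or library-size scaling, DESeq2, no filter, a replicate block and each library left out. For pairs they were another pseudocount, FPKM and CPM.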

Additional observations from a re-analysis of the deposited data

How the results depend on the processing

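No result for the 9 tested members but Map3k5 passed under any setting. The count of all genes called was 3 and became 1152 with DESeq2, 1 with the replicate block and 1 to 1016 with 1 library left out, the most without KO 1. Of the members, 1 was called with DESeq2 and 0 to 1 with a library left out, and of the pathway genes 3 and 0 to 1, in both cases 1 without KO 1 and 0 without any other. With the replicate block 0 members and 0 pathway genes were called; the numbers were not taken as pairs, since same-numbered libraries correlated at -0.17, -0.02 and 0.05 in their deviations from the group means, and KO 1 correlated best with WT 2. Values close to 0 turned sign. With a library left out, Map2k4 ran from -0.037 to 0.070, below 0 without KO 3 (-0.01), WT 1 and WT 2 (-5.8e-04), Map2k7 from -0.062 to 0.0078, above 0 without KO 3, and Mapk14 from -0.0046 to 0.046, below 0 without KO 2. Without TMM factors, on library totals, the median over all genes was 0.13 in place of 0.02, Map2k7 went to 0.10 and the pathway genes at an unadjusted p under 0.05 to 12 higher and 3 lower, against 3 and 3. All 17820 genes went to 3241 higher and 972 lower, against 1721 and 1730. Mapk8, Mapk9, Mapk11, Mapk12, Map3k5 and Mapk8ip1 kept their sign under all 12 settings. The paralogue differences kept their sign too, from 2.12 to 2.17 for Mapk9 over Mapk8, 3.68 to 3.81 for Mapk14 over Mapk11, 2.24 to 2.41 for Mapk14 over Mapk12, -1.54 to -1.27 for Mapk11 over Mapk12 and -0.29 to -0.24 for Map2k4 over Map2k7 with a library left out. On counts with no division by length Map2k4 over Map2k7 was -0.12, Mapk14 over Mapk12 3.02 and Mapk14 over Mapk11 4.29, against -0.26, 2.31 and 3.75. With 5 libraries the smallest adjusted p of the exact permutation test is 0.0625, so none could pass. The cause of the other differences was not tested. Depth limits Mapk10, at 23 to 42 counts in the libraries labelled KO.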
